A study of Mus musculus with 24 samples.

Results

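Livers of wild-type female mice given ganciclovir (GCV) were compared with livers of wild-type female mice given vehicle (VEH). These 6 livers, 3 GCV-treated (replicates 4, 5 and 6) and 3 VEH-treated (replicates 4, 5 and 6), were taken from the 24 livers of the series by the sex, genotype and treatment in their labels. In the same study, p16-3MR mice express a viral thymidine kinase in p16+ cells, where GCV becomes toxic. Wild-type mice lack this transgene, so the comparison asks what the drug does to liver transcripts without its intended target. Both groups are female, have no transgene, carry a batch 2 label and were injected from 6 months of age, and livers were taken after 3 months. Vehicle was water at pH 11. The labels give a monthly schedule for the wild-type mice but a GCV dose only for the p16-3MR mice, and the study's methods give a different dose from the labels, so no dose is stated here. The 6 wild-type male livers given GCV or VEH (replicates 1, 2 and 3 in each group), with the same age, batch and schedule, serve as the comparison by sex. The p16-3MR mice began treatment later, at 16 to 18 months, and belong to another batch, so no test was made across genotypes. Single wild-type mice are not further identified in the labels, and p-values measure the spread between these livers.

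Ganciclovir is a guanosine analog that cells without viral thymidine kinase phosphorylate poorly. The liver takes part in drug handling through nuclear receptors, cytochrome P450 enzymes, which oxidize foreign compounds, and phase II enzymes, which conjugate the products with glutathione, glucuronic acid or sulfate. Hepatocytes also make cholesterol from acetyl-CoA through the mevalonate pathway, whose genes are driven together by SREBP2, and make fatty acids by de novo lipogenesis under SREBP1c and insulin. Fatty acid-binding proteins carry the resulting lipids inside the cell. These groups are described in that order of interest, lipid and sterol genes first.

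The sterol enzymes Cyp51, Nsdhl and Idi1 had the lowest p-values of the sterol list in the comparison below. The 250 bases in front of their transcription starts are shown because genes of this pathway are known to be bound by NF-Y, a partner of SREBP2, at CCAAT boxes. Capitals mark each CCAAT, or ATTGG where the box lies on the other strand. The sequences are the RefSeq promoters of build GRCm38.p6, written 5′ to 3′ on the strand of the gene.
Cyp51, chr5:4104698-4104947, minus strand: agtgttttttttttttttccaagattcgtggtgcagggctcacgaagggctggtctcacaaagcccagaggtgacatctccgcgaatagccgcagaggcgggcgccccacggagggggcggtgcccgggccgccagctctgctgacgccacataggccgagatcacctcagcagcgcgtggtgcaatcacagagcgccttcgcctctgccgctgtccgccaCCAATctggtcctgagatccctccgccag
Nsdhl, chrX:72918271-72918520, plus strand: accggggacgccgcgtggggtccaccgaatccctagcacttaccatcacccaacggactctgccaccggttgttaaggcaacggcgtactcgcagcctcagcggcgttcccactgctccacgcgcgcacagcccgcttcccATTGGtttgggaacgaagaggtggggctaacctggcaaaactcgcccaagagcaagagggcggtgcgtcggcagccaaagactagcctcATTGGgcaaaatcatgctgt
Idi1, chr13:8885356-8885605, plus strand: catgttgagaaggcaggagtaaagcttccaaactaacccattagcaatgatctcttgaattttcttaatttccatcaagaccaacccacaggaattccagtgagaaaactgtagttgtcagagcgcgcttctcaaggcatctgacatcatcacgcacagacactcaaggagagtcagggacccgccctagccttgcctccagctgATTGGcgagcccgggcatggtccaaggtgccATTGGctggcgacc
Distances here are from the RefSeq starts. GENCODE begins Cyp51 at 4104746 and Idi1 at 8885501, inside these windows, so by GENCODE their boxes lie after the start. Cyp51 held 1 box, 29 bases before the RefSeq start. Nsdhl held 2, at 109 and 20 bases, and Idi1 held 2, at 45 and 14 bases. CCAAT on either strand was present in 12 of the 16 measured sterol genes with a promoter in the table (75.0%) and in 8 of 13 genes of de novo lipogenesis (61.5%), against 37.5% of all 27025 genes with a promoter. Another motif, the sterol response element written TCACNCCAC, was found on neither strand in these windows of the 16 sterol genes, against 1.22% of all genes. These are matches of letters and were not measured as sites.

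The deposited table labels genes with 9 lower-case letters missing. Of its 12643 rows, 10512 matched exactly 1 mouse symbol (83.14%), 2104 matched several, and 27 matched none. A gene is named only where its label belongs to it alone, so Srebf1, Srebf2, Fasn, Hmgcs1 and Lss have no value of their own here. The female libraries held 3084517 to 5235756 counts, and a floor of 3 counts equals 0.516 to 0.863 CPM (counts in each 1000000, on TMM-scaled library sizes). These floors cover counting error alone, because duplicate PCR reads do not count separate molecules. The female livers had 0 to 1 counts of the Y-linked gene Ddx3y, against 170 to 297 in males, and hepatocyte markers were abundant, with Ttr at 9188 to 10530 CPM. On principal components of all 6 livers, 24.1% of the variance lay on the first, where the GCV-treated livers had the 3 highest scores, 41.9, 2.62 and 0.208. The nearest VEH-treated liver scored -0.901, close to GCV-treated livers 4 and 6, and the order was not kept with the 500 most variable genes.

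GCV changed a single transcript in wild-type female livers at an adjusted p-value under 0.05. This was 1 of 12643 rows, or 0.00791%, in edgeR's quasi-likelihood test fitted on all 12 wild-type livers. Without adjustment, 577 rows had a p-value under 0.05 (4.56%), of which 284 were higher after GCV (2.25%) and 293 lower (2.32%). Changes were small. Among the 5842 rows with a mean of at least 10 CPM, 99.85% had a log2 fold change between -1 and 1, with a median standard error of 0.171. The median log2 fold change over all rows was 0.0, a value that TMM scaling itself brings near 0. The number of calls depended on the fit. It was 44 when only the 6 female livers were fitted, among them Cyp51, Nsdhl, Idi1, Scd1, G6pc, Tat, Cyp2c37, Cyp3a11 and Gsta2, 17 with DESeq2 and 0 with edgeR's own filter on low counts, where 441 rows had an unadjusted p-value under 0.05. Leaving out 1 liver gave 12 calls without VEH-treated liver 5, 3 without VEH-treated liver 4, 2 without GCV-treated liver 4, 1 without GCV-treated liver 5, and 0 without GCV-treated or VEH-treated liver 6, with 500 and 434 rows at an unadjusted p-value under 0.05.

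The called gene was Fabp5, which encodes an epidermal-type fatty acid-binding protein and lies on chromosome 3 at 10012548 to 10016607, plus strand, in GENCODE's annotation of GRCm38. Its level was 216, 187.6 and 197.5 CPM in the GCV-treated livers and 487, 766.7 and 703.9 CPM in the VEH-treated livers. No GCV-treated liver reached the lowest VEH-treated liver. The GCV-treated mean was 200.4 ± 14.4 CPM (SD, n = 3), the VEH-treated mean 652.5 ± 147 CPM (SD, n = 3), and Fabp5 fell 3.25-fold. The log2 fold change was -1.70 (standard error 0.24, 95% interval -2.21 to -1.19, adjusted p = 0.00927 in edgeR). The call was lost when GCV-treated liver 5 (adjusted p = 0.0662 from edgeR), GCV-treated liver 6 (0.0913) or VEH-treated liver 6 (0.0541) was left out, and with edgeR's filter (0.126). Under all alternatives run, the log2 fold change stayed between -1.88 and -1.57. Fabp5 has processed pseudogenes, and the authors' counting could have split reads with them.

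**Figure D1:**
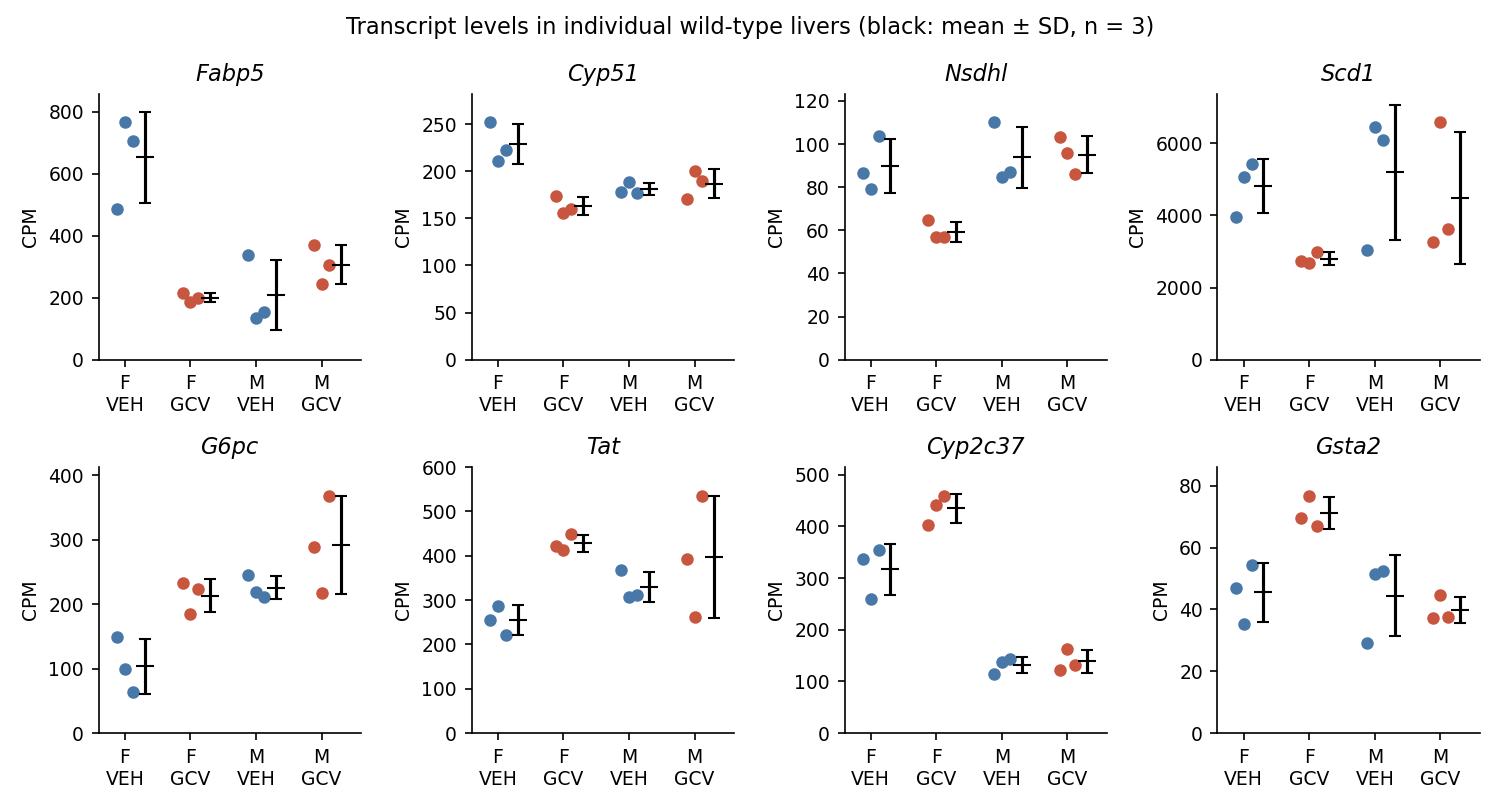
Levels of 8 transcripts in each wild-type liver, in CPM, by sex and treatment, with 3 livers per group and black bars for the mean and SD. Fabp5, Cyp51, Nsdhl and Scd1 were lower in all 3 GCV-treated females than in any VEH-treated female, and G6pc, Tat, Cyp2c37 and Gsta2 were higher, while male groups overlapped for each of the 8.

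Genes of sterol synthesis and its regulation were mostly lower after GCV, such as 1.51-fold for the sterol enzyme Nsdhl and 1.32-fold for the regulator Scap, but none passed the adjusted threshold. Of 41 genes of sterol synthesis and its regulation, 26 had a label of their own, and all 26 had a mean of at least 10 CPM. The fit put 21 lower and 5 higher, with a median log2 fold change of -0.25. A total of 8 members were lower at an unadjusted p-value under 0.05 (among them Pmvk, Mvd, Idi1, Cyp51, Nsdhl, Scap and Abca1) and 0 were higher, where 2.93% of rows at this level were lower. The count was 14 in the fit of the 6 female livers, where 3.24% of all rows were lower, 6 with DESeq2 (1.38%), and 6 to 10 with 1 liver left out (1.67% to 2.74%). The lowest adjusted p-value of the list was 0.232 from edgeR's test. This list was chosen with earlier results of these livers known, so its direction is a description.

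In the mevalonate pathway, Pmvk, the phosphomevalonate kinase, had a log2 fold change of -0.53 and Mvd, the mevalonate diphosphate decarboxylase, one of -0.50. Idi1, the isopentenyl diphosphate isomerase, measured 134.9, 147.9 and 114.7 CPM after GCV and 194.8, 162.6 and 195.8 CPM after VEH, a log2 fold change of -0.48 (standard error 0.12). All 3 GCV-treated livers lay below the VEH-treated livers.

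In the later steps, from lanosterol onward, Cyp51, the lanosterol demethylase, measured 174, 155.6 and 160.1 CPM after GCV and 252.3, 211 and 222.6 CPM after VEH. Its log2 fold change of -0.49 had a standard error of 0.10 and an unadjusted p-value of 0.000147 in edgeR. Nsdhl, a sterol dehydrogenase, measured 64.6, 56.7 and 56.7 CPM after GCV against 86.7, 79.0 and 103.7 CPM after VEH (log2 fold change -0.60, standard error 0.13). Both genes separated the groups without overlap. Cyp51, Nsdhl and Idi1 passed the adjusted threshold with DESeq2 (adjusted p = 0.00362 for Cyp51) and in the fit of the 6 female livers (adjusted p = 0.0201 for Cyp51 in edgeR). Over all alternatives run, the adjusted p-value of Cyp51 ranged from 0.00362 to 0.852.

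Not every sterol gene was low. Insig1, which retains SREBP in the endoplasmic reticulum, had a log2 fold change of -0.10, and Nr1h3, which encodes a liver X receptor, one of -0.02. Scap, the escort protein of SREBP, was at 104.2, 96.1 and 111.6 CPM after GCV and 142, 142 and 128.8 CPM after VEH. Abca1, a cholesterol exporter induced by liver X receptors, had a log2 fold change of -0.35 with overlapping groups, and -0.10 without VEH-treated liver 4.

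Genes of de novo lipogenesis pointed the same way. Of 26 genes, 17 had a label of their own, 15 of these were fitted lower, and the median log2 fold change was -0.43, or -0.27 without VEH-treated liver 4. At an unadjusted p-value under 0.05, 4 were lower (among them Acaca, Scd1 and Elovl5) and 0 were higher, where 2.32% of all rows were lower. Of the 13 members at 10 CPM or more, 5 separated the groups with lower values after GCV, against 5.75% of rows at that level. Scd1, the stearoyl-CoA desaturase that makes oleate, measured 2733, 2680 and 2996 CPM after GCV and 3969, 5066 and 5421 CPM after VEH. Every GCV-treated liver was below every VEH-treated liver, and the mean was 1.72-fold lower (log2 fold change -0.78, standard error 0.23). Acaca, the acetyl-CoA carboxylase, had a log2 fold change of -0.46, and the elongase Elovl5 one of -0.44.

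**Figure D2:**
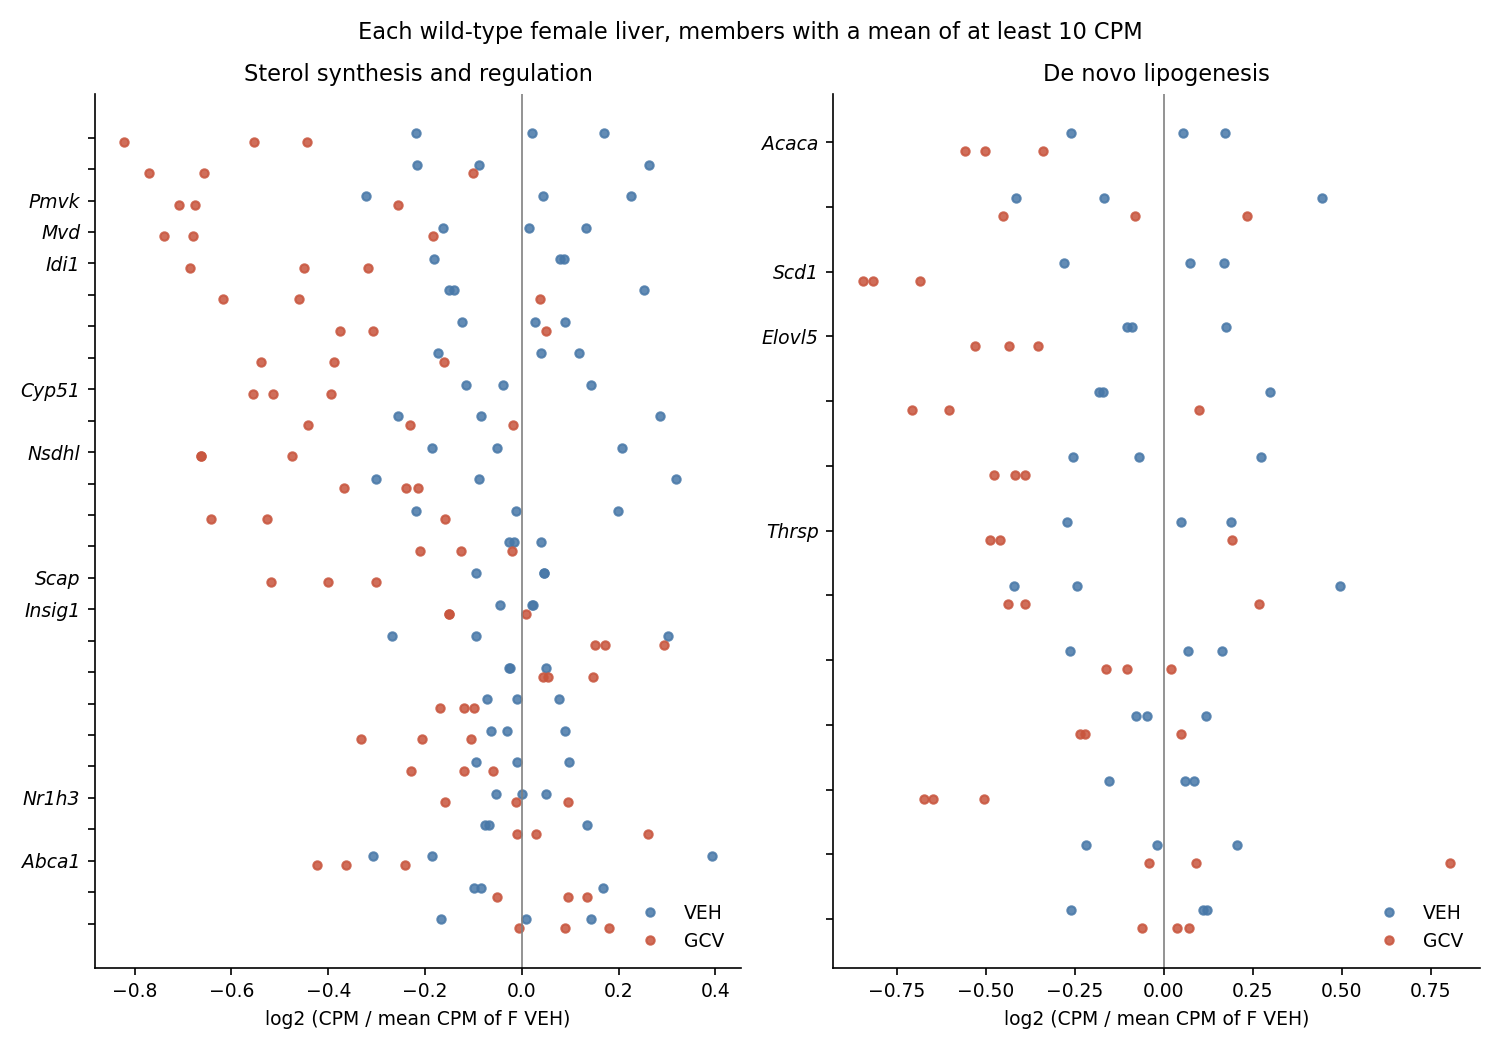
Each point is 1 wild-type female liver and each line of points 1 gene with a mean of at least 10 CPM. The horizontal axis is the log2 ratio of its CPM to the mean of the VEH-treated females. GCV-treated livers lie left of all VEH-treated livers for 8 of the 26 sterol genes, against 5.75% of all rows at that level. Nr1h3 and Insig1 stay near 0. Only genes named in the text are labelled.

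Other lipid genes showed no common direction. The 27 measured genes of fatty acid binding, uptake and lipid droplets had a median log2 fold change of 0.02, with Fabp5 and Lpin1 lower and Fabp4 higher at an unadjusted p-value under 0.05, against 2.32% and 2.25% of all rows. Fabp1, the main fatty acid-binding protein of hepatocytes, spanned 8391 to 9870 CPM after GCV and 7204 to 14270 CPM after VEH, a log2 fold change of -0.26 with overlapping groups, which was -0.035 without VEH-treated liver 4 and -0.49 without VEH-treated liver 5. Fabp4, the fatty acid-binding protein of adipocytes and macrophages, measured 18.1, 13.5 and 15.7 CPM after GCV and 9.46, 12.8 and 10.3 CPM after VEH (log2 fold change 0.54, standard error 0.24, adjusted p = 1.0 from edgeR). The fatty acid receptor Cd36 had a log2 fold change of 0.09. Lpin1, a phosphatidate phosphatase, measured 96.0, 120.5 and 94.6 CPM after GCV and 219.9, 106 and 136.1 CPM after VEH, so the groups overlapped and VEH-treated liver 4 was the highest. Its log2 fold change of -0.58 was -0.23 without that liver.

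Of 28 measured genes of PPARα and fatty acid oxidation, 0 were under 0.05 by edgeR's unadjusted p-value, against 4.56% of all rows, and the median log2 fold change was -0.04. Of the 21 members at 10 CPM or more, 3 separated the groups with higher values after GCV and 0 with lower values, against 6.52% and 5.75% of rows. Cyp4a14, a strongly inducible PPARα target, spanned 335.2 to 359.9 CPM after GCV and 157.1 to 324 CPM after VEH. Among 7 measured apolipoprotein and lipoprotein genes, Pltp, the phospholipid transfer protein, measured 81.3, 78.0 and 98.5 CPM after GCV and 132.1, 150.2 and 188.6 CPM after VEH. Its groups did not overlap, and its log2 fold change was -0.86 (standard error 0.29).

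Drug-metabolizing enzymes leaned higher after GCV, such as 1.37-fold for Cyp2c37 and 1.56-fold for Gsta2 and Cyp2b13, and none passed the adjusted threshold. Of 56 cytochrome P450 genes of families 1 to 3, 45 had a label of their own, and 29 were fitted higher and 15 lower, with a median log2 fold change of 0.10. At an unadjusted p-value under 0.05, 9 were higher (Cyp2a5, Cyp2a22, Cyp2b13, Cyp2c29, Cyp2c37, Cyp2c50, Cyp2c54, Cyp2d22 and Cyp2d34) and 2 were lower (Cyp2c70 and Cyp3a44), where 2.25% of all rows were higher and 2.32% lower. Of the 34 members at 10 CPM or more, 8 were higher at this threshold, against 2.94% of rows at that level. Groups separated with higher values after GCV for 10 of the 34, against 6.52% of rows, and with lower values for 5, against 5.75% of rows. The 9 members at an unadjusted p-value under 0.05 became 4 without VEH-treated liver 6, where 1.55% of all rows were higher, and 5 without GCV-treated liver 4 (1.65%), and numbered 15 in the fit of the 6 female livers (2.86%). Many of these genes are near-identical neighbors, and the authors' counting could have shared reads between them.

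The classical reporters of xenobiotic receptors were measured directly. Cyp2b10, the target of the receptor CAR, measured 37.7, 27.3 and 30.1 CPM after GCV and 11.2, 29.9 and 20.5 CPM after VEH, with overlapping groups and a log2 fold change of 0.64 (standard error 0.37). Cyp3a11, the target of PXR, measured 870.8, 915.1 and 932.2 CPM after GCV and 688.6, 457.4 and 767.4 CPM after VEH. Its groups did not overlap, and its log2 fold change of 0.51 had a 95% interval of -0.22 to 1.23 in the fit of 12 livers. Cyp3a11 passed the adjusted threshold in the fit of the 6 female livers (adjusted p = 0.0424 in edgeR), and its adjusted p-values ranged from 0.00105 with a replicate block to 1.0 over the alternatives run. Cyp1a2, a target of the aryl hydrocarbon receptor, had a log2 fold change of 0.13, and Cyp1a1, another, had 0 to 3 counts in each female liver, at or under the floor of 3 counts. Nr1i2, which encodes PXR itself, was lower at an unadjusted p-value under 0.05 in edgeR, with a log2 fold change of -0.33. It was -0.19 without VEH-treated liver 6. Nr1i3, which encodes CAR, had a log2 fold change of 0.02.

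Cyp2c37 gave the lowest p-value of the P450 list, with 403.3, 441.3 and 459.5 CPM after GCV and 336.5, 260.1 and 353.4 CPM after VEH. All GCV-treated livers were higher, and the log2 fold change was 0.46 (standard error 0.13, adjusted p = 0.609 from edgeR's test). Cyp2b13, a P450 of female liver, measured 99.0, 104.7 and 117.1 CPM after GCV against 69.5, 68.8 and 67.5 CPM after VEH. Cyp2b13 passed the adjusted threshold with DESeq2, in the fit of the 6 female livers and with a replicate block. On the other side, Cyp3a44, likewise female-biased, measured 69.6, 79.7 and 46.3 CPM after GCV and 88.0, 146.4 and 86.8 CPM after VEH.

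Among xenobiotic receptors, reductases and phase II enzymes, 49 of 88 genes had a label of their own, 36 were fitted higher and 13 lower, and the median log2 fold change was 0.22. At an unadjusted p-value under 0.05, 11 were higher and 2 lower, Nr1i2 among the latter, against 2.25% and 2.32% of all rows. Of the 40 members at 10 CPM or more, 12 separated the groups with higher values after GCV and 1 with lower values, against 6.52% and 5.75% of rows. The 11 higher members comprised the glutathione transferases Gsta2, Gsta3, Gsta4 and Gstk1, the glucuronosyl- and glycosyltransferases Ugt2a3, Ugt2b35 and Ugt3a1, the sulfotransferases Sult1d1, Sult2a8 and Sult5a1, and the carboxylesterase Ces3a. Gsta2 measured 69.6, 76.8 and 66.9 CPM after GCV and 46.9, 35.2 and 54.3 CPM after VEH, without overlap (log2 fold change 0.64, standard error 0.18). Sult2a8 measured 331.4, 345.2 and 318.6 CPM after GCV and 305.4, 227.6 and 225.7 CPM after VEH (log2 fold change 0.39, standard error 0.11). Summed over the list, phase II and receptor transcripts were at 11040 to 11280 CPM in GCV-treated livers and 9986 to 10610 CPM in VEH-treated livers. Without VEH-treated liver 6 the count was 5 and the median log2 fold change 0.11, and without GCV-treated liver 4 or 6 the count was 6, while it was 19 in the fit of the 6 female livers. In these fits 1.55%, 1.65%, 1.8% and 2.86% of all rows were higher.

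**Figure D3:**
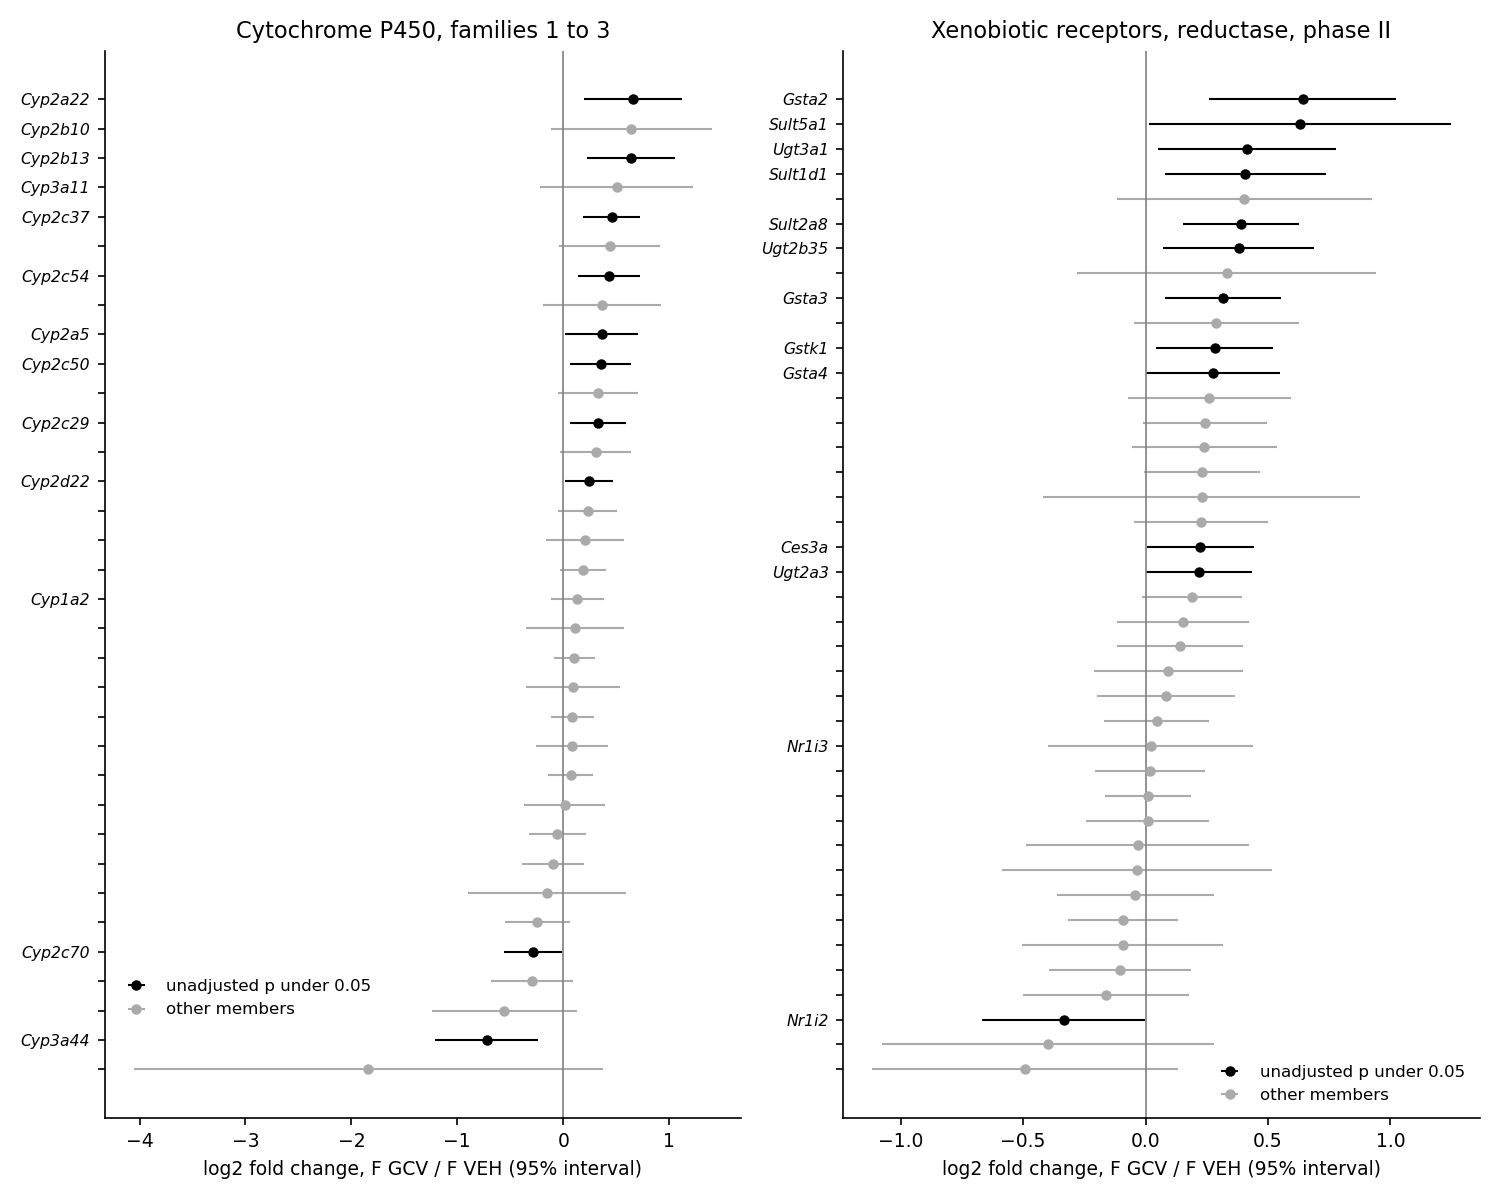
Log2 fold changes of GCV-treated over VEH-treated females with 95% intervals, for 34 P450 genes and 40 receptor, reductase and phase II genes with a mean of at least 10 CPM, sorted by size. Black marks an unadjusted p-value under 0.05, and most black points lie right of 0. Only genes named in the text are labelled.

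Genes of glucose production and of the fasting response were measured in the same livers. G6pc, the glucose-6-phosphatase that releases glucose from the liver, measured 232.3, 184.7 and 223.6 CPM after GCV and 148.8, 98.9 and 63.2 CPM after VEH, a mean 2.05-fold higher (log2 fold change 1.04, standard error 0.21, adjusted p = 0.195 from edgeR). Without VEH-treated liver 4 the adjusted p-value was 0.00204, and over all alternatives run it ranged from 4.64e-12 with a replicate block to 0.663. The lowest without that block was 0.00104 from edgeR, in the fit of the 6 female livers. Tat, a tyrosine aminotransferase induced by glucocorticoids and glucagon, measured 421.6, 413.4 and 450.1 CPM after GCV and 255.4, 287.6 and 221 CPM after VEH (log2 fold change 0.75, standard error 0.17). Neither gene overlapped between groups, and Ppargc1a, a coactivator of both fasting and oxidative genes, had a log2 fold change of 0.46. Fkbp5, which glucocorticoids also induce, lay on the other side, with 28.5, 29.6 and 18.8 CPM after GCV and 41.96, 34.5 and 50.8 CPM after VEH. Of the 13 measured genes of this list, 3 were higher and 2 lower at an unadjusted p-value under 0.05, against 2.25% and 2.32% of all rows.

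Transcripts tied to nucleotide handling and DNA damage had an unadjusted p-value under 0.05 about as often as all rows (4.56%). Of 24 measured genes of nucleoside kinases and nucleotide metabolism, 1 had an unadjusted p-value under 0.05, the pyrimidine-degrading Dpyd, with a log2 fold change of 0.29. Of 16 measured p53 targets and DNA damage genes, 1 did, Ei24, with a log2 fold change of 0.28. Cdkn1a, the p53 target that encodes p21, measured 4.07, 1.44 and 3.65 CPM after GCV and 6.36, 3.76 and 3.06 CPM after VEH. Of 21 measured genes of cell division, 3 were lower and 1 higher at an unadjusted p-value under 0.05, against 2.32% and 2.25% of all rows. Of these 4, only Ccnd1, which encodes cyclin D1, had a mean of at least 10 CPM, and the other lower genes, the transcription factor gene E2f1 and the replication helicase gene Mcm6, had 1.36 to 7.76 CPM. All 3 lower genes separated the groups, Ccnd1 with 169.5, 156.8 and 138.4 CPM after GCV and 276.5, 199.1 and 256.5 CPM after VEH (log2 fold change -0.66, standard error 0.15). Its adjusted p-value was 0.0394 in edgeR without VEH-treated liver 5. Over all alternatives run, it ranged from 0.000104 with a replicate block to 0.794. The median of that list was a log2 fold change of 0.05, and 4 of its 21 members had a mean of at least 10 CPM.

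Genes of endoplasmic reticulum stress were split, with 3 higher and 3 lower of 21 measured at an unadjusted p-value under 0.05, against 2.25% and 2.32% of all rows. The lower members included Dnajb9, a cochaperone, at 20.1, 18.4 and 16.2 CPM after GCV and 46.1, 23.0 and 33.6 CPM after VEH, and Herpud1, of protein degradation at this membrane, with a log2 fold change of -0.51. Dnajb9 had an adjusted p-value of 0.0249 in edgeR without VEH-treated liver 5. Over all alternatives run, it ranged from 0.00152 with a replicate block to 0.873. The higher members were the chaperones Hsp90b1 (log2 fold change 0.37), Sdf2l1 (0.69) and Pdia4 (0.44). Of 22 interferon-stimulated, 10 acute phase and 9 immediate early genes measured, 0 were under 0.05 by edgeR's unadjusted p-value, against 4.56% of all rows.

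Markers of other cells were examined beside these results. The 9 measured Kupffer cell and macrophage markers summed to 370.5 to 410.3 CPM after GCV and 358.4 to 527.3 CPM after VEH. Of the 9, 0 were under 0.05 by edgeR's unadjusted p-value, against 4.56% of all rows, and 8 were fitted lower, with a median log2 fold change of -0.17. Monocyte and neutrophil markers summed to 15.4 to 19.2 CPM after GCV and 18.9 to 24.8 CPM after VEH, and 5 of the 7 were fitted lower, with a median log2 fold change of -0.38. Of the 7, 3 separated the groups with lower values after GCV, against 4.95% of all rows, and 1 was lower at an unadjusted p-value under 0.05, against 2.32%. Only Plac8 of these markers had a mean of at least 10 CPM. Lymphocyte markers summed to 12.4 to 20.1 CPM and 14.96 to 28.98 CPM, and 8 of the 10 were fitted lower, with a median log2 fold change of -0.46. Of the 10, 0 were under 0.05 by edgeR's unadjusted p-value, against 4.56% of all rows. Of these, only Igkc exceeded 3.32 CPM in any female liver. Over all rows, 49.5% were fitted lower. Sinusoidal endothelial, stellate and cholangiocyte markers had median log2 fold changes of 0.03, 0.00 and -0.10, and their sums overlapped between treatments. At an unadjusted p-value under 0.05, 2 of 8 endothelial markers passed, Fabp4 higher and Egfl7 lower (log2 fold change -0.42), as did 1 of 8 stellate markers, Acta2, higher at 2.92 to 8.34 CPM after GCV against 1.89 to 3.76 CPM after VEH (log2 fold change 0.95, or 0.47 without GCV-treated liver 5), and 0 of 7 cholangiocyte markers, against 4.56% of all rows. Red cell transcripts leaned higher, with 4 of 5 at an unadjusted p-value under 0.05, against 2.25% of all rows, and a median log2 fold change of 0.54. In males the median was 0.66, with 3 of 5 higher at that threshold, against 2.65% of all rows. The summed list in males was at 1785, 3771 and 1668 CPM after GCV and 1503, 1531 and 1627 CPM after VEH. GCV-treated male 2 thus stood far above the other males. In females Hba-a1, an alpha globin, measured 990.7, 966 and 715.9 CPM after GCV and 428, 732.4 and 675.4 CPM after VEH. The summed list in females ran from 1282 to 1883 CPM after GCV and from 769.7 to 1364 CPM after VEH. Without VEH-treated liver 4 the log2 fold change of Hba-a1 went from 0.54 to 0.34. Tfrc, the transferrin receptor, which hepatocytes also express, had the second lowest p-value among the named genes, at 5.65, 7.77 and 12.6 CPM after GCV and 1.89, 2.43 and 2.12 CPM after VEH. The 6 measured adipocyte markers, Fabp4 included, summed to 24.7 to 25.2 CPM after GCV and 19.8 to 26.1 CPM after VEH, with Cidea at 0 counts in all 6 livers and Cfd at most 0.226 CPM. In bulk tissue, fewer cells of a type and less RNA per cell cannot be told apart, and the part of red cells or other cells in any result above was not tested.

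The change after GCV differed between females and males for 1 of 12643 rows (0.00791%), again Fabp5, and 563 rows had an unadjusted p-value under 0.05 (4.45%). In males it measured 368.5, 243.7 and 306.4 CPM after GCV and 336.9, 133.6 and 152.8 CPM after VEH, with overlapping groups and a log2 fold change of 0.56. Female minus male, the log2 fold changes differed by -2.26 (standard error 0.34, adjusted p = 0.0197 from edgeR). This call was lost with DESeq2 (adjusted p = 0.0946), with edgeR's filter (0.222), and when GCV-treated female 4, 5 or 6, VEH-treated female 6, GCV-treated male 1 or 3 or VEH-treated male 3 was left out. The adjusted p-values of all alternatives ranged from 3.58e-26 with a replicate block to 0.222 in edgeR. In males alone, 0 rows passed the adjusted threshold in edgeR and 640 had an unadjusted p-value under 0.05.

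The sterol, lipogenesis and phase II lists had medians of opposite sign in females and males, and the P450 list did not. The male medians were small, and their signs were not checked with 1 male left out. In single VEH-treated males, median log2 deviations from the VEH-treated male mean ran from -0.10 to 0.18 (sterol), -0.11 to 0.18 (lipogenesis) and -0.07 to 0.03 (phase II). For sterol genes, the male median log2 fold change was 0.05. Within males, 0 of 26 members had an unadjusted p-value under 0.05, where 640 of all 12643 rows did. At that threshold, 9 of the 26 had a lower change in females than in males, against 2.74% of rows at 10 CPM or more. Nsdhl had a difference of -0.61 (standard error 0.19) and Cyp51 one of -0.53 (standard error 0.15), both with adjusted p-values of 0.979 or more in edgeR. For de novo lipogenesis the male median was 0.13, and 5 of 17 members had a lower change in females at that threshold, against 2.5% of all rows. Within males, 2 of these 17 were higher after GCV and 1 lower, where 2.65% of all rows were higher. For phase II genes the male median was -0.03, and 9 of 49 had a higher change in females and 4 a lower one, against 1.95% and 2.5% of all rows. Within males, 5 of these 49 were higher after GCV and 1 lower, where 2.65% of all rows were higher. P450 genes had a female median of 0.10 and a male median of 0.07. The change was higher in females than in males for 4 of 45 and lower for 7, against 1.95% and 2.5% of all rows. Within males, 6 of these 45 were higher after GCV and 1 lower, where 2.65% of all rows were higher.

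Male livers of one treatment spread widely in several of these genes. Thrsp, a lipogenic gene that follows feeding, measured 646.1, 204.3 and 853.6 CPM in GCV-treated and 687.2, 147.8 and 149.7 CPM in VEH-treated males, and Pltp measured 36.5, 103.8 and 56.5 CPM and 41.5, 112.1 and 115.7 CPM. VEH-treated male 1 resembled GCV-treated males 1 and 3 in both genes, and GCV-treated male 2 resembled the other two VEH-treated males. Without VEH-treated male 1, 17 rows passed the adjusted threshold for the difference between the sexes in edgeR. The spread of the males also enters the female test, since 1 estimate of the spread was shared by all 12 livers.

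**Figure D4:**
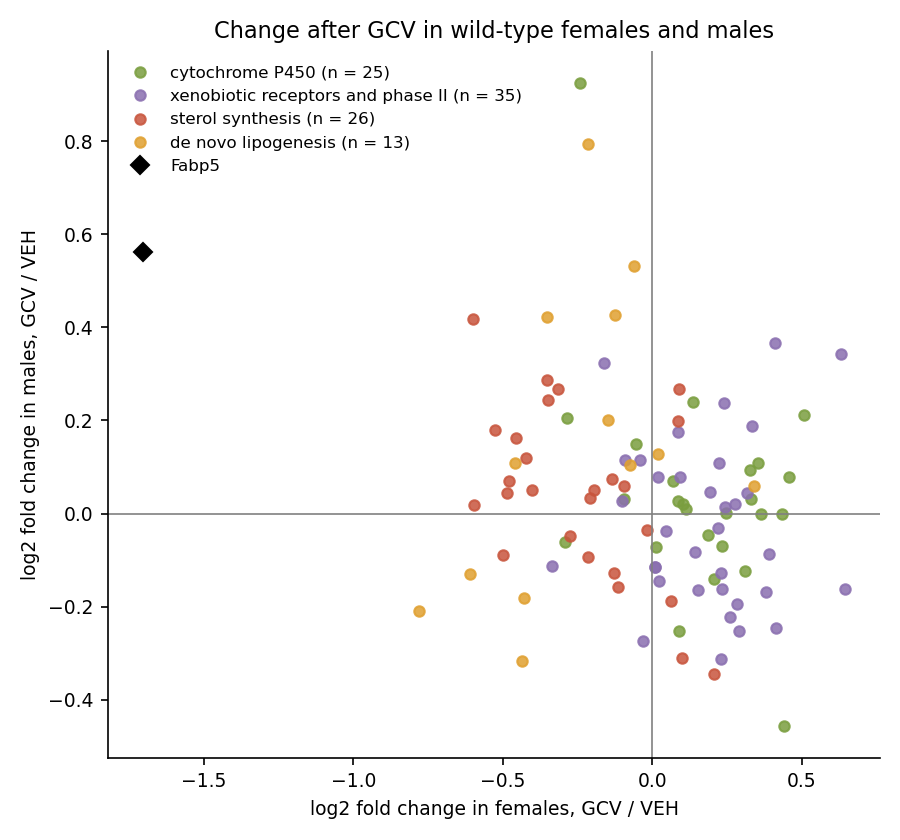
Log2 fold change after GCV in wild-type females (horizontal) and males (vertical) for list members with a mean of at least 10 CPM in both sexes, and for Fabp5 (black diamond). Most sterol and lipogenesis genes lie left of 0 and most phase II genes right of 0 on the female axis, while on the male axis each group spreads to both sides of 0.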

How the data were processed

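Total liver RNA was sequenced by Smart-3SEQ, which reads transcript 3′ ends. Per the labels and methods, the authors trimmed reads with Trim Galore 0.6.10, checked them with FastQC 0.11.9, estimated abundance with Salmon 1.10.3, aggregated it per gene with tximport and dropped genes under 3 reads. The submitters' processing notes name build mm10. The deposited values are estimated counts (expected counts), rounded to whole numbers by the authors and not scaled.

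Here, edgeR 4.0.16 (R 4.3.3) was run with TMM scaling and quasi-likelihood tests on all 12 wild-type livers, with 1 mean per group and Benjamini-Hochberg adjustment over 12643 rows. A call is an adjusted p-value under 0.05. CPM use TMM-scaled library sizes. The test was first run on simulated data with known log2 fold changes of 1 or more. Recovery of smaller changes, which most changes here were, was not examined. Named genes are those called, up to 15 per direction with the lowest p-values, 10 or more counts on average and no overlap, list members with an unadjusted p-value under 0.05 and a mean of at least 10 counts, the 5 most abundant members of 7 lists, and preset genes. Further list members were added after their values were seen, and some genes are counted in their lists but not reported by name here. The members and lists were chosen with earlier results of these data known. Alternatives were DESeq2 1.42.0 and its size factors in edgeR, library size alone, limma-voom (limma 3.58.1) with quality weights, filterByExpr, a replicate block, the 6 female livers alone, an adjusted p-value under 0.1, other genes for principal components, and each liver left out. Gene coordinates are from GENCODE vM21, and promoter windows from RefSeq.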

Additional observations from a re-analysis of the deposited data

Results flagged for a closer look

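Fabp5 was the single result that met a rule for a closer look, because its change after GCV differed between the sexes by a test of the difference itself. The female log2 fold change minus the male one was -2.26 (adjusted p = 0.0197 in edgeR, 4.7e-08 to 0.222 over the alternatives without the replicate block). Fabp5 was lower in 3 of 3 GCV-treated females than in any VEH-treated female, at 187.6 to 216 CPM against 487 to 766.7 CPM, and the male groups overlapped. Groups of 3 livers were not tested for single outlying livers.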

How the results depend on the processing

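Each log2 fold change named for females kept its sign under the tools, scalings and filters tried. With 1 liver left out, 3 genes near 0 changed sign: Nr1i3 ranged from -0.0922 to 0.1895, Nr1h3 from -0.083 to 0.0426 and Cd36 from -0.0637 to 0.2209. Of 58 named genes with an unadjusted p-value under 0.05, the value moved by over 1.5 times without 1 liver in 17 (Abca1, Acta2, Ces3a, Cyp2a5, Cyp2c50, Cyp3a44, Dpyd, Gsta4, Hba-a1, Lpin1, Nr1i2, Sdf2l1, Sult1d1, Sult5a1, Ugt2b35, Ugt3a1 and mt-Nd6). The cause was not tested for the shifts that follow. The 1 call in females became 2 at an adjusted p-value under 0.1, 17 with DESeq2, 3 with limma-voom and quality weights, 0 with filterByExpr (which tests 9056 rows), 44 with the 6 female livers alone, and 0 to 12 with 1 liver left out. DESeq2 gave 174 lower rows at an unadjusted p-value under 0.05, and gave no adjusted p-value for 9070 rows. For the difference between females and males, calls were 0 with filterByExpr and 0 to 17 with 1 liver left out, and rows with an unadjusted p-value under 0.05 were 362 with DESeq2, 854 with limma-voom and 444 to 883 with 1 liver left out.

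Sterol members lower at an unadjusted p-value under 0.05 numbered 14 with the 6 female livers and 6 to 10 with 1 liver left out. P450 members higher numbered 14 with limma-voom, 15 with the 6 female livers and 4 to 11 with 1 liver left out, and phase II members higher numbered 19 and 5 to 11. With 1 liver left out, median log2 fold changes ran from -0.32 to -0.17 (sterol), -0.47 to -0.27 (lipogenesis), 0.0645 to 0.173 (P450) and 0.11 to 0.22 (phase II). Over these settings, 1.55% to 3.34% of all rows were higher and 1.38% to 3.24% lower at that threshold. The first principal component held 27.9% to 30.5% of the variance in its alternatives.

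Replicate numbers are shared between treatments, but the labels do not say that they mark a shared cage or day. The deviations of same-numbered female livers from their group means correlated at -0.02, -0.08 and 0.02 over 5842 rows, and those of male livers at 0.35, 0.39 and -0.17 over 5786 rows, so the numbers were not taken as pairs in either sex. A fit with the replicate block gave 106 calls in females, 79 for the difference between sexes, 16 P450 and 20 phase II members higher, and not every female liver correlated best with its own number.

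Depth limits transcripts under about 10 CPM, whose fold changes rest on few counts, and labels shared by several symbols or matching none keep 40.71% of the counts from a named gene.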

Other observations

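Clock and growth hormone genes were measured in the same female livers. Of 9 measured clock genes, 1 was higher and 1 lower at an unadjusted p-value under 0.05, against 2.25% and 2.32% of all rows. The lower gene was Ciart, a circadian repressor, with a log2 fold change of -1.49 at 1.46 to 8.46 CPM. Of 25 measured genes of the growth hormone axis and of female-biased expression, 3 were higher and 1 lower at that threshold, against the same shares of all rows. They included the major urinary protein gene Mup3, at 3060, 3222 and 3230 CPM after GCV and 2493, 2615 and 2326 CPM after VEH.

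The mitochondrially encoded mt-Nd6, encoded on the strand opposite to the other protein genes of that genome, measured 7.004, 33.7 and 20.4 CPM after GCV and 6.54, 6.19 and 7.76 CPM after VEH. GCV-treated livers 5 and 6 were high and liver 4 lay within the VEH-treated range. The other 10 measured mitochondrial genes had 0 members under 0.05 by edgeR's unadjusted p-value, against 4.56% of all rows. Without GCV-treated liver 4, mt-Nd6 passed the adjusted threshold.

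Gm4294 was at 0 counts in each of the 3 GCV-treated females and at 24.3 to 45.4 CPM in VEH-treated females (adjusted p = 0.333 from edgeR). In males it was at 0 in GCV-treated livers 1 and 2 and in VEH-treated livers 2 and 3, and at 24.1 and 43.1 CPM in the others.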
